A study of Homo sapiens with 12 samples.

Results

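The transcripts of 10 genes that encode mTOR, its partners in mTORC1 and mTORC2 and the proteins that act just upstream of them were followed in colon cancer cells exposed to Actinomycin D (Act D). The genes were MTOR, RPTOR, RICTOR, MLST8, DEPTOR, TSC1, TSC2, RHEB, DDIT4 and AKT1S1, taken by their known roles in the pathway, with no measured value in the rule, and all 10 were among the 15692 genes, of 60617 gene identifiers, that passed the filter on low counts. RNA-seq was available for 4 groups of 3 libraries. HCT 116p53-/- is a human colon cancer line, and the second line is HCT 116p53-/- labelled as carrying a knockout (KO) of RPL3, the gene for ribosomal protein uL3, which the study describes as stably silenced; the p53-/- genotype is thus labelled for every library. Cells of each line received vehicle, or 5 nM Act D for 24 h, a low dose at which Act D blocks mainly the synthesis of ribosomal RNA.

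mTOR is a serine/threonine kinase that works in a pair of complexes. In mTORC1 it is bound by raptor (the product of RPTOR), which recruits substrates, and by the inhibitory subunit PRAS40 (AKT1S1), and this complex promotes protein and ribosome synthesis and restrains autophagy when growth factors, amino acids and energy are sufficient. In mTORC2 it is bound by rictor (RICTOR) and phosphorylates AKT, while mLST8 and DEPTOR belong to both complexes. The small GTPase Rheb (RHEB) activates mTORC1 at the lysosome, the tuberous sclerosis complex of TSC1 and TSC2 turns Rheb off, and REDD1 (DDIT4), a stress-induced protein, acts through that complex to lower mTORC1 activity. mRNA levels do not report the activity of these kinases and GTPases.

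Since the line difference was largest at DDIT4 and the response to Act D at RPTOR, the DNA before their start sites is shown, with that of MTOR for comparison. Windows of 250 bases before RefSeq start sites (GRCh38.p14) were examined for 7 of the 10 genes, and the remaining genes were left out. Among these 7, the windows of MTOR, RPTOR and DDIT4 overlapped annotated exons the least, by 5 bases for MTOR, 19 for RPTOR and 36 for DDIT4. The windows lie at chr1:11262552-11262801 (MTOR, minus strand), chr17:80544588-80544837 (RPTOR, plus strand) and chr10:72273674-72273923 (DDIT4, plus strand), end at the base before the start site and are written 5′ to 3′ on the strand of the gene. Capitals mark matches, on either strand, to 6 motifs: the E-box (CACGTG), the core of hypoxia response elements (ACGTG, which an E-box also contains), the core of cAMP response elements (TGACG), the GC box (GGGCGG), the CCAAT box and an ETS motif (CCGGAAG).
MTOR: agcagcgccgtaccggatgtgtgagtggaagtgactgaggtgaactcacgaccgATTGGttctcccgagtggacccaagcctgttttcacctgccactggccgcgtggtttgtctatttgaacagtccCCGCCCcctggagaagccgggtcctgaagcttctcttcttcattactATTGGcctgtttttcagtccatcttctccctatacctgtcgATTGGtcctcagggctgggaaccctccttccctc
RPTOR: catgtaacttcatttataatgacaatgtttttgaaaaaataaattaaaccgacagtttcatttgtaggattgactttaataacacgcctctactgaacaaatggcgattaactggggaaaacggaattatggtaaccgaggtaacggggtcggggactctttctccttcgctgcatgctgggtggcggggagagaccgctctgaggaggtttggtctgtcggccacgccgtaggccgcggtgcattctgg
DDIT4: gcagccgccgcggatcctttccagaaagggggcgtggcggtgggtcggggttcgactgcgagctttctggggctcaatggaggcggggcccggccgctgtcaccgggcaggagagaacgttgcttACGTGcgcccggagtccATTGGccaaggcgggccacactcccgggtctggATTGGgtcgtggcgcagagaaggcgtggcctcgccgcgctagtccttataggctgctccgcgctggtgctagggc
The MTOR window held 3 CCAAT matches, starting at positions -196, -75 and -34 counted from the start site, and 1 GC box. DDIT4 had 2 CCAAT matches and 1 ACGTG, while none of the 6 motifs occurred in the window of RPTOR, whose GC content was 47.2% against 55.6% for MTOR and 68.8% for DDIT4. Among 35116 human promoters of the same length 32.0% contained CCAAT, 18.5% ACGTG, 42.6% the GC box, 21.2% TGACG, 8.52% the ETS motif and 6.34% the E-box, so that such matches are common. Of the windows not printed, that of TSC2 held an E-box and RHEB an ACGTG overlapping a TGACG. These matches describe letters only and were not tested as binding sites.

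Totals per library ranged from 10087925 to 21138886 counts. The library labels were examined first at the targeted gene. RPL3 was at 1112 to 1151 CPM (a share of the library total that is scaled for library composition) in the 6 HCT 116p53-/- libraries and at 1132 to 1337 CPM in the 6 libraries labelled RPL3 KO, with a log2 difference of 0.13 with vehicle (adjusted p = 0.155) and 0.12 with Act D (adjusted p = 0.187), so that the level of this mRNA did not show the labelled deletion. The lines also differed in markers of cell type. The summed level of 8 epithelial markers was 2592 to 2916 CPM in HCT 116p53-/- and 1614 to 2009 CPM in the libraries labelled RPL3 KO, where CDH1 and GRHL2 were near 0 but KRT18 was 1.39 times higher with vehicle (adjusted p = 2.28e-05), and that of 7 mesenchymal markers was 56.1 to 100.2 CPM against 2533 to 2866 CPM, most of it VIM. Among these 7 markers, COL1A1 was 1.84 times lower with vehicle in the libraries labelled RPL3 KO (adjusted p = 0.0018). CDH2, also of the 7, was near 1 CPM or below in all libraries with no difference called, and TWIST1 was near 0 in both lines. Of 9 intestinal markers no more than 2 reached 1 CPM in any group, with CDX2 at 14.2 to 23.5 CPM in HCT 116p53-/- and at most 0.343 CPM in the other line, while LGR5 was at most 0.0676 CPM in HCT 116p53-/- and at 1.61 to 4.19 CPM in the other line, and 4 leukocyte markers summed to no more than 0.701 CPM anywhere. With such differences a gene that differs between the lines is not particular: 71.3% of all genes tested passed when vehicle libraries were compared (35.1% with a higher and 36.2% with a lower level in those labelled RPL3 KO) and 70.4% with Act D (35.1% higher, 35.3% lower). The share that the marker differences have in the line differences below was not tested, and the effect of RPL3 cannot be told apart from other differences between the lines.

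Against that background, 7 of the 10 mTOR genes differed between the lines with vehicle, with higher levels in the libraries labelled RPL3 KO for RICTOR, RHEB, DDIT4 and AKT1S1 and lower ones for MTOR, RPTOR and MLST8. With Act D 5 differed, 3 higher (RICTOR, RHEB, DDIT4) and 2 lower (MTOR, RPTOR). The median log2 difference of the 10 genes was 0.08 and 0.21, beside -0.02 for all genes in both comparisons. Act D changed 5 of the 10 in HCT 116p53-/- cells, with 2 higher (TSC1 and AKT1S1) and 3 lower (MTOR, RPTOR and MLST8), where 18.7% of all genes changed, 7.59% higher and 11.1% lower. Act D changed 3 in the libraries labelled RPL3 KO, all lower (RPTOR, RICTOR and DDIT4), where 11.9% of all genes changed, 3.51% higher and 8.4% lower. RPTOR alone among the 10 responded differently in the 2 lines, where 6.53% of all genes did so (3.3% with a higher and 3.23% with a lower response in the libraries labelled RPL3 KO). The median change with Act D was -0.26 in HCT 116p53-/- and -0.04 in the libraries labelled RPL3 KO, and 0.02 and 0.03 for all genes. Calls were made at an adjusted p below 0.05, with Benjamini-Hochberg adjustment over all genes tested in edgeR's quasi-likelihood test. In bulk RNA less transcript in each cell and fewer cells with the transcript cannot be told apart.

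**Figure D1:**
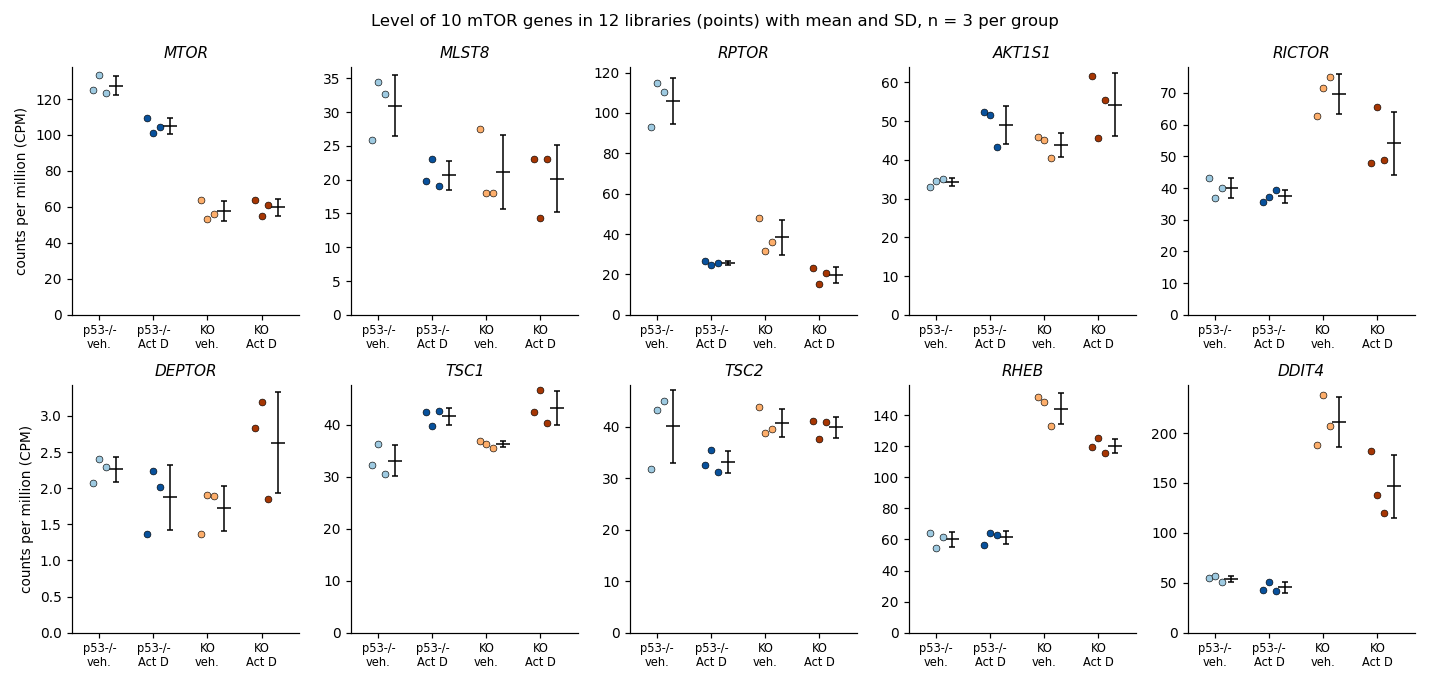
Level of each of the 10 genes in CPM (vertical axes, each from 0) in the 12 libraries, with points for libraries and bars for the mean and SD of 3; KO stands for the libraries labelled RPL3 KO. RPTOR falls from 93.2 to 114.7 CPM with vehicle to 24.7 to 26.7 CPM with Act D in HCT 116p53-/-, while RHEB and DDIT4 are higher in all 6 libraries labelled RPL3 KO.

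MTOR itself (chr1:11106535-11262556, minus strand, hg38) was expressed at 125.1, 133.5 and 123.6 CPM in HCT 116p53-/- with vehicle and at 64.0, 53.3 and 56.2 CPM in the libraries labelled RPL3 KO. The groups did not overlap, and the level in the latter was 2.21 times lower (log2 difference -1.14 ± 0.09, SE; adjusted p = 2.06e-09). With Act D the libraries gave 109.6, 100.9 and 104.2 CPM in HCT 116p53-/- and 63.9, 54.7 and 61.1 CPM in the libraries labelled RPL3 KO, and the line difference was -0.81 ± 0.09 (adjusted p = 2.84e-07). All Act D libraries of HCT 116p53-/- were thus below their vehicle libraries, a small fall of 0.28 ± 0.09 on the log2 scale (adjusted p = 0.0306), but this call was lost in 8 of the alternative analyses, with an adjusted p of up to 0.195. No change with Act D was called in the libraries labelled RPL3 KO (log2 change 0.06, 95% interval -0.13 to 0.25, adjusted p = 0.758), and the responses of the 2 lines were not shown to differ (0.34, adjusted p = 0.121).

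MLST8 (chr16:2204248-2209453), which encodes the subunit that stabilizes the kinase domain in both complexes, was measured with more scatter. HCT 116p53-/- libraries with vehicle were at 25.8, 34.5 and 32.6 CPM and those with Act D at 19.8, 23.0 and 19.1 CPM. Every Act D library was lower, with a log2 change of -0.59 ± 0.18 (adjusted p = 0.0286), a call that was lost without any of 4 of the 6 libraries (adjusted p up to 0.11). The libraries labelled RPL3 KO were at 27.5, 18.06 and 17.96 CPM with vehicle and 23.1, 14.4 and 23.1 CPM with Act D. These groups overlapped with each other and with Act D-treated HCT 116p53-/-. The vehicle groups of both lines overlapped as well, at 27.5 CPM against a lowest HCT 116p53-/- library of 25.8 CPM. The line difference with vehicle was -0.56 ± 0.18 (adjusted p = 0.00911; 0.0512 without replicate 2 of the vehicle libraries labelled RPL3 KO), and with Act D it was -0.02 (95% interval -0.42 to 0.37).

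RPTOR (chr17:80544819-80966371, plus strand) varied most of the 10, with a range of 2.42 on the log2 scale between its highest and lowest group means, ahead of DDIT4 (2.21), RHEB (1.26) and MTOR (1.14). In HCT 116p53-/- cells it was at 93.2, 114.7 and 110.3 CPM with vehicle and at 26.7, 24.7 and 25.6 CPM with Act D. The Act D libraries lay close together and far below, a 4.13-fold fall (log2 change -2.05 ± 0.15, adjusted p = 8.1e-08). The libraries labelled RPL3 KO were at 48.0, 31.4 and 35.9 CPM with vehicle and at 23.0, 15.3 and 20.6 CPM with Act D. Here too the groups did not overlap, but the fall was smaller, 1.93-fold (-0.95 ± 0.16, adjusted p = 0.000531). Both falls, and the difference between them of 1.10 ± 0.21 (adjusted p = 0.00452), kept their call in every alternative analysis, with adjusted p values of at most 2.69e-06, 0.00336 and 0.0253. With vehicle RPTOR was 2.78 times lower in the libraries labelled RPL3 KO (-1.47 ± 0.14, adjusted p = 3.93e-08). With Act D the lines were closer, with a log2 difference of -0.37 ± 0.16 (adjusted p = 0.0441), and that call was lost on leaving out any Act D library of HCT 116p53-/- or replicate 2 of the Act D libraries labelled RPL3 KO (adjusted p 0.0518 to 0.161), and after correction for GC content and transcript length (-0.14, adjusted p = 0.311).

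The genes whose log2 levels followed RPTOR most closely over the 12 libraries, among 10855 genes of at least 5 CPM on average, were SLC19A1, the reduced folate carrier (r = 0.977), APBB2 (r = 0.976) and VAV2, a guanine nucleotide exchange factor (r = 0.975). These correlations are a description, since the points share lines, treatments and depth. SLC19A1 was at 57.3 ± 5.67 CPM (mean ± SD, n = 3) with vehicle and 10.2 ± 0.972 CPM with Act D in HCT 116p53-/-, and at 16.2 ± 1.69 and 10.2 ± 1.28 CPM in the libraries labelled RPL3 KO, hence the order of groups was nearly that of RPTOR. RPTOR is also the longest of the 10 genes, spanning 421.6 kb, while DEPTOR spans 177.2 kb, MTOR 156.0 kb and DDIT4 2.118 kb. Of the 556 tested genes longer than 300 kb, 198 fell and 5 rose with Act D in HCT 116p53-/- (median log2 change -0.35, beside 0.02 for all genes with a known span), and only 4 of them changed below the value of RPTOR. In the libraries labelled RPL3 KO 50 fell and 14 rose (median 0.06), 22 of them with a change below that of RPTOR, and the difference between the responses was positive for 100 and negative for 4 of those called (median 0.40). Whether gene length has a part in the fall of RPTOR was not tested.

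AKT1S1 (chr19:49869033-49878459, minus strand), the gene of the inhibitory subunit PRAS40, moved the other way from RPTOR in HCT 116p53-/- cells. Vehicle libraries were at 33.1, 34.6 and 35.1 CPM and Act D libraries at 52.3, 51.5 and 43.4 CPM, with no overlap and a 1.43-fold rise (log2 change 0.52 ± 0.11, adjusted p = 0.00274), called in every alternative analysis. Values of 45.9, 45.2 and 40.4 CPM with vehicle and 61.7, 45.6 and 55.4 CPM with Act D were found in the libraries labelled RPL3 KO. These overlapped, and the change of 0.31 ± 0.11 was not called (adjusted p = 0.074). Some alternatives called it, DESeq2 among them (adjusted p = 0.0499), and over all of them the adjusted p ranged from 0.0108 to 0.358. With vehicle AKT1S1 was 1.28 times higher in the libraries labelled RPL3 KO (adjusted p = 0.00763), a difference that was not called when libraries were scaled by their totals alone (0.12, adjusted p = 0.447). With Act D the line difference was 0.15 (95% interval -0.08 to 0.38).

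RICTOR (chr5:38937920-39074402, minus strand), the defining subunit of mTORC2, differed between the lines in the direction opposite to RPTOR. It was at 43.0, 36.9 and 40.1 CPM in HCT 116p53-/- with vehicle and at 62.6, 71.5 and 74.9 CPM in the libraries labelled RPL3 KO, 1.74 times higher and without overlap (log2 difference 0.80 ± 0.11, adjusted p = 5.39e-06). With Act D it was at 35.5, 37.1 and 39.4 CPM in HCT 116p53-/-, where no change was called (-0.10, 95% interval -0.35 to 0.14), and at 47.9, 65.7 and 48.9 CPM in the libraries labelled RPL3 KO. The line difference with Act D was 0.53 ± 0.12 (adjusted p = 0.000539). The fall with Act D in the libraries labelled RPL3 KO, -0.37 ± 0.11 (adjusted p = 0.0432), rested on overlapping groups, since replicate 2 with Act D lay above the lowest vehicle library, and 9 alternatives lost the call (adjusted p up to 0.189). The responses were not shown to differ (-0.27, adjusted p = 0.366).

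Levels of RPTOR and RICTOR were also set against each other per length, as TPM, which is scaled for transcript length, within each library. RPTOR was 2.67, 4.30 and 3.58 times the level of RICTOR in HCT 116p53-/- with vehicle, but 1.18, 1.10 and 0.951 times with Act D. In the libraries labelled RPL3 KO the ratio was 1.10, 0.679 and 0.735 with vehicle and 0.895, 0.335 and 0.756 with Act D. Every HCT 116p53-/- library with vehicle was therefore above all other libraries. The ratio was picked after the values were seen and is given as a description, without a test.

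**Figure D2:**
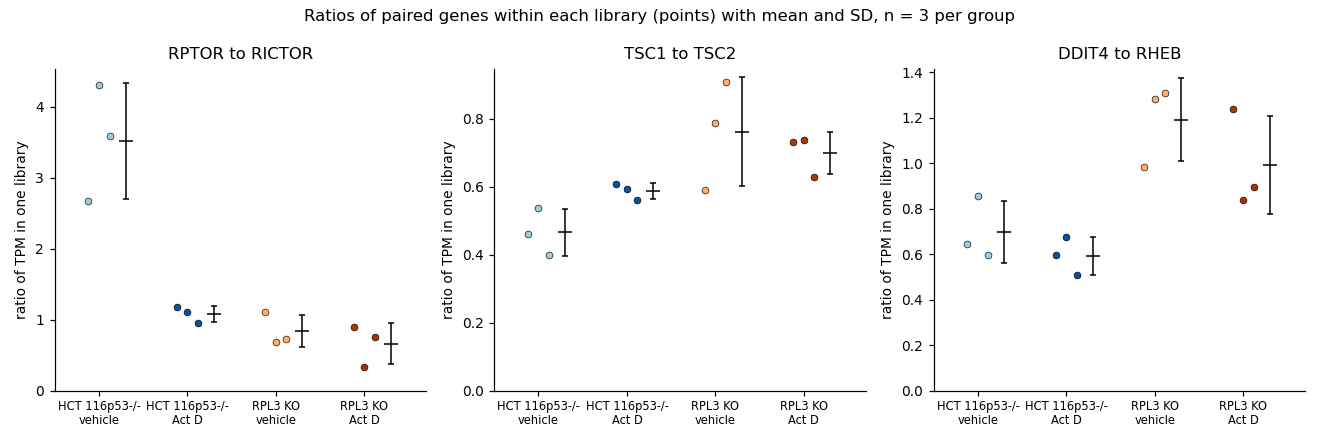
Ratio of TPM between paired genes in each library (vertical axes, from 0), with points for the 12 libraries and bars for the mean and SD of 3 in each group. RPTOR to RICTOR is between 2.67 and 4.30 in HCT 116p53-/- with vehicle and between 0.335 and 1.18 in the other groups, while TSC1 to TSC2 stays below 1 in all libraries.

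DEPTOR, the inhibitor that binds mTOR in both complexes, was scarce in all libraries. HCT 116p53-/- libraries had 2.07, 2.41 and 2.29 CPM with vehicle and 1.37, 2.23 and 2.01 CPM with Act D. The libraries labelled RPL3 KO had 1.37, 1.90 and 1.89 CPM with vehicle and 2.84, 3.20 and 1.85 CPM with Act D. Between 16 and 39 counts stood behind each value, and no comparison was called. The change with Act D in the libraries labelled RPL3 KO was 0.61 (adjusted p = 0.212). Its 95% interval of -0.02 to 1.23 held both no change and a larger rise. The difference between the responses had the widest interval, 0.01 to 1.75 around 0.88, and did not pass after adjustment over all genes (adjusted p = 0.231). With vehicle the lines did not overlap, but their log2 difference of -0.38 was within its error (95% interval -0.99 to 0.23).

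The subunits of the tuberous sclerosis complex changed little. TSC1 (chr9:132891348-132946874, minus strand; hamartin) was at 32.3, 36.4 and 30.5 CPM in HCT 116p53-/- with vehicle and 42.5, 39.8 and 42.6 CPM with Act D. The groups did not overlap, and the rise was 1.26-fold (log2 change 0.33 ± 0.09, adjusted p = 0.0168), but 6 alternatives lost the call (adjusted p up to 0.113). In the libraries labelled RPL3 KO it was at 36.8, 36.3 and 35.6 CPM with vehicle and 42.5, 46.7 and 40.4 CPM with Act D, likewise without overlap. The change of 0.25 ± 0.09 was not called (adjusted p = 0.0893). Some alternatives called it, and over all of them the adjusted p ranged from 0.0197 to 0.459. The interval of the difference between these responses, -0.36 to 0.19, included 0. TSC2 (chr16:2047967-2089491; tuberin, the subunit with GTPase-activating function) was at 31.8, 43.3 and 45.0 CPM, and with Act D at 32.6, 35.4 and 31.3 CPM, in HCT 116p53-/-, and at 43.9, 38.7 and 39.6 CPM, and with Act D at 41.2, 37.6 and 40.8 CPM, in the libraries labelled RPL3 KO. No comparison was called for TSC2. The nearest was the line difference with Act D, 0.27 ± 0.12 (adjusted p = 0.0513), which 6 alternatives called, the largest being 0.55 after correction for GC content and transcript length (adjusted p = 1.4e-05). The change of TSC2 with Act D in HCT 116p53-/-, -0.27 (adjusted p = 0.113), was called at -0.42 (adjusted p = 0.00944) without replicate 1 of the vehicle libraries. The correction for GC content and transcript length also called a line difference with vehicle for TSC1 (0.33, adjusted p = 0.00249) and TSC2 (0.34, adjusted p = 0.00108).

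RHEB (chr7:151466012-151520120, minus strand), the activating GTPase, stood apart between the lines. It was at 64.0, 54.5 and 61.7 CPM in HCT 116p53-/- with vehicle and at 151.7, 148.2 and 133.0 CPM in the libraries labelled RPL3 KO, 2.40 times higher (log2 difference 1.26 ± 0.09, adjusted p = 4.77e-10). Act D libraries were at 56.6, 64.2 and 63.1 CPM in HCT 116p53-/- and at 119.5, 125.2 and 115.8 CPM in the libraries labelled RPL3 KO, a difference of 0.97 ± 0.09 (adjusted p = 2.16e-08). Lines did not overlap with either treatment. In HCT 116p53-/- the change with Act D was 0.03 (95% interval -0.16 to 0.22). All Act D libraries labelled RPL3 KO were below all vehicle libraries so labelled, and the change of -0.26 ± 0.09 missed the threshold (adjusted p = 0.0552) but passed it in 6 alternatives, DESeq2 among them (adjusted p = 0.0311).

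DDIT4 (chr10:72273919-72276036, plus strand), the gene of the stress-induced inhibitor REDD1, had the largest line difference of the 10. HCT 116p53-/- libraries were at 54.3, 57.1 and 50.7 CPM with vehicle and the libraries labelled RPL3 KO at 188.4, 237.9 and 206.7 CPM, 3.91 times higher (log2 difference 1.97 ± 0.13, adjusted p = 3.03e-10). With Act D they were at 43.0, 51.1 and 41.8 CPM and at 181.8, 137.6 and 120.4 CPM, 3.24 times higher in the latter (1.698 ± 0.134, adjusted p = 2.99e-09). The lowest library labelled RPL3 KO was above the highest HCT 116p53-/- library throughout. Act D lowered DDIT4 in the libraries labelled RPL3 KO by 1.44-fold (-0.52 ± 0.13, adjusted p = 0.0113), narrowly without the call when replicate 2 of the vehicle libraries was left out (-0.43, adjusted p = 0.052). In HCT 116p53-/- the change of -0.25 (95% interval -0.53 to 0.03) was not called, and the responses were not shown to differ (-0.27, adjusted p = 0.43).

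**Figure D3:**
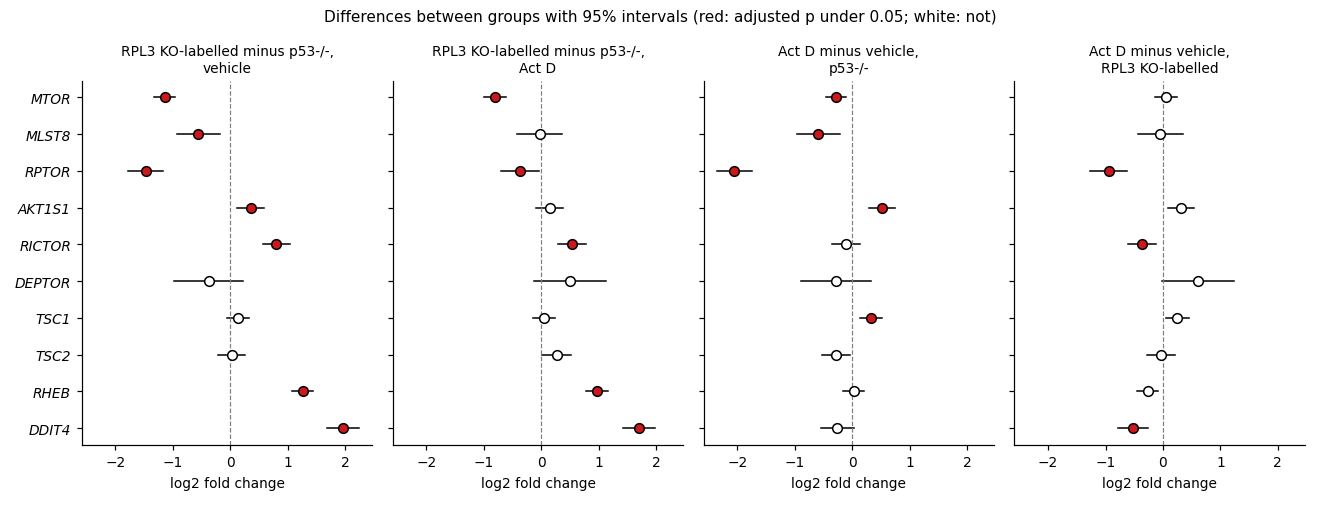
Log2 fold changes (horizontal axes) of the 10 genes in 4 comparisons, with points for the estimate and lines for its 95% interval; red points passed an adjusted p of 0.05 in edgeR's quasi-likelihood test. DDIT4 at 1.97 and RPTOR at -1.47 are at the ends of the line differences with vehicle, and RPTOR at -2.05 is farthest from 0 among the changes with Act D.

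Per length, the order of the levels in HCT 116p53-/- with vehicle ran from RHEB (38.6 ± 6.24 TPM, mean ± SD, n = 3) and DDIT4 (26.5 ± 1.81 TPM) through MLST8, MTOR, RPTOR, AKT1S1 and TSC2 (between 12.2 and 16.1 TPM) to TSC1 (5.62 ± 0.216 TPM), RICTOR (3.85 ± 0.768 TPM) and DEPTOR (0.780 ± 0.0529 TPM). MLST8 and MTOR overlapped, as did RPTOR, AKT1S1 and TSC2, and other neighbours in the order did not. With Act D RPTOR moved from the fifth to the eighth place, at 3.60 ± 0.121 TPM, where it overlapped RICTOR (3.36 ± 0.341 TPM). In the libraries labelled RPL3 KO with vehicle DDIT4 (71.6 ± 1.89 TPM) and RHEB (61.2 ± 11.5 TPM) led and overlapped each other, whereas MTOR (4.83 ± 1.24 TPM), RICTOR (4.65 ± 0.461 TPM) and RPTOR (3.90 ± 1.12 TPM) overlapped near the low end. With Act D RHEB (47.9 ± 7.08 TPM) and DDIT4 (47.6 ± 13.1 TPM) again overlapped, and RPTOR (2.26 ± 0.432 TPM) was above DEPTOR only (0.550 ± 0.176 TPM). The level of DDIT4 was 0.596 to 0.854 times that of RHEB in HCT 116p53-/- libraries with vehicle and 0.984 to 1.31 times in the libraries labelled RPL3 KO with vehicle.

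TPM depends on which transcripts RSEM assigned, and for replicate 2 of vehicle-treated HCT 116p53-/-, the library deposited by transcript, these could be counted. In that library 1 transcript held 91.3% of the TPM of DDIT4, and the leading transcript held 64.1% for MTOR, 62.5% for RPTOR and 76.2% for RICTOR. For TSC1 the leading transcript held only 16.8% and for TSC2 still less, with 15 and 28 transcripts above 0. In the 11 libraries deposited by gene, RSEM's posterior SD was at most 0.865% of the count for any of the 10 genes. Exons shared with an annotated gene on the opposite strand made up 9.59% of the exon bases of DEPTOR (DEPTOR-AS1), 4.61% for MLST8 (BRICD5) and 3.82% for TSC2 (PKD1). The library kit is not described as stranded in the sources used here, so that reads of such stretches cannot be assigned to a strand, while DDIT4 and RHEB share none with another annotated gene. RHEB has processed pseudogenes, between which and RHEB similar reads may have been divided.

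The rest of the pathway was described by 78 further genes in 9 lists, all of which passed the filter on low counts. Compared with HCT 116p53-/-, vehicle libraries labelled RPL3 KO had 31 of them higher and 31 lower (79.5% called, beside 71.3% of all genes). Act D libraries had 28 higher and 29 lower (73.1% called, beside 70.4% of all genes). Act D raised 12 and lowered 14 in HCT 116p53-/- (33.3% called, beside 18.7% of all genes) and raised 5 and lowered 11 in the libraries labelled RPL3 KO (20.5% called, beside 11.9%), and 7 responded differently between the lines (8.97%, beside 6.53%), 3 with a higher and 4 with a lower response in the latter. The median log2 difference of the 78 was 0.04 between lines with vehicle, 0.11 with Act D, -0.01 and -0.04 for Act D in HCT 116p53-/- and the other line, and -0.03 for the difference of the responses.

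Among 6 further subunits and assembly factors of the complexes, 4 fell with Act D in HCT 116p53-/- and none was called in the libraries labelled RPL3 KO (median log2 change -0.58 and -0.18), where 11.1% and 8.4% of all genes fell. PRR5 and MAPKAP1 encode mTORC2 subunits. PRR5 was at 15.5, 23.1 and 20.7 CPM with vehicle and 6.42, 7.37 and 6.84 CPM with Act D in HCT 116p53-/- (log2 change -1.52 ± 0.18, adjusted p = 1.37e-05), and at 6.35, 4.15 and 3.71 CPM and 4.07, 3.31 and 3.83 CPM in the libraries labelled RPL3 KO, where the change of -0.31 was not called (adjusted p = 0.428). The responses differed by 1.22 ± 0.29 (adjusted p = 0.0184, up to 0.0737 in the alternatives). MAPKAP1 was at 74.6, 75.9 and 68.4 CPM with vehicle and 47.8, 45.1 and 47.6 CPM with Act D in HCT 116p53-/- (-0.64 ± 0.08, adjusted p = 3.54e-05), while libraries labelled RPL3 KO were between 61.5 and 71.3 CPM with either treatment (-0.01, 95% interval -0.19 to 0.16), a difference between the responses of 0.62 ± 0.12 (adjusted p = 0.00397). PRR5L, a paralog of PRR5, had 1, 4 and 7 counts in HCT 116p53-/- with vehicle and 0 in every Act D library, against 33 to 134 counts in the libraries labelled RPL3 KO. With Act D it was at least 18.3-fold higher in the latter, taking 3 counts per library as the floor, and no fold is given for the change within HCT 116p53-/-, which is near that floor.

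TBC1D7, a further subunit of the tuberous sclerosis complex, was 2.80 times higher with vehicle in the libraries labelled RPL3 KO (7.85 CPM in HCT 116p53-/- against 22.03 CPM, adjusted p = 7.09e-08) and RHEBL1 3.16 times higher with Act D (1.12 against 3.52 CPM, adjusted p = 0.0014). DDIT4L, the paralog of DDIT4, went the other way: it had 13, 15 and 26 counts in HCT 116p53-/- with vehicle and 0 in the 3 vehicle libraries labelled RPL3 KO, at least 4.77-fold lower.

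In the nutrient-sensing arm, GATOR1, which inactivates the Rag GTPases, and KICSTOR, which anchors it to the lysosome, had 0 genes higher and 6 lower of 7 with vehicle, and 0 higher and 5 lower with Act D, in the libraries labelled RPL3 KO (median log2 difference -0.78 and -0.56, beside -0.02 for all genes, of which 36.2% were lower with vehicle and 35.3% with Act D). KPTN was 3.91 times lower with vehicle (adjusted p = 2.69e-06). DEPDC5, the GATOR1 subunit, fell with Act D in HCT 116p53-/- from 23.6 to 14.0 CPM (adjusted p = 0.00134). KICS2 was at 15.7, 15.8 and 15.1 CPM with vehicle and 9.34, 13.7 and 11.3 CPM with Act D in HCT 116p53-/-. This log2 change of -0.44 was narrowly called (adjusted p = 0.0456, up to 0.228 in the alternatives). In the libraries labelled RPL3 KO, KICS2 was at 5.78, 5.85 and 5.00 CPM and 8.36, 8.68 and 6.15 CPM. There the change of 0.485 was not called (adjusted p = 0.0797). The signs were opposite, with a difference between the responses of 0.93 ± 0.23 (adjusted p = 0.0207). Of the 10 Rag GTPase and Ragulator genes 4 were higher and 3 lower with vehicle (70.0% called, near the 71.3% of all genes), with LAMTOR2 at 15.8 against 36.1 CPM (adjusted p = 2.88e-08) and RRAGD at 19.8 against 5.79 CPM (adjusted p = 2.77e-08). The 5 GATOR2 genes gave 2 higher and 2 lower with vehicle (80.0% called), among them SEC13 (1.63 times higher) and WDR59 (2.01 times lower).

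Sestrins, which are stress-induced leucine sensors or inhibitors of mTORC1 signalling, responded to Act D in different ways. SESN2 rose in HCT 116p53-/- from 12.9, 15.8 and 17.3 CPM to 38.6, 40.8 and 42.5 CPM (log2 change 1.41 ± 0.13, adjusted p = 1.45e-06). In the libraries labelled RPL3 KO it fell from 39.9, 38.5 and 29.9 CPM to 27.9, 24.4 and 21.3 CPM (-0.55 ± 0.13, adjusted p = 0.0109). The line difference thus changed sign, from 1.24 with vehicle to -0.72 with Act D, and the responses differed by -1.95 ± 0.19 (adjusted p = 1.62e-05, at most 0.000142 in the alternatives). SESN1 rose 2.43-fold in HCT 116p53-/- (9.56 to 23.2 CPM, adjusted p = 7.07e-06) and went from 6.66 to 8.66 CPM, uncalled, in the libraries labelled RPL3 KO (adjusted p = 0.165), a difference between the responses of -0.91 ± 0.22 (adjusted p = 0.0168). SESN3 rose in both, 1.84-fold (3.31 to 6.09 CPM, adjusted p = 0.00176) and 1.77-fold (19.2 to 34.3 CPM, adjusted p = 0.000436), and was 5.82 times higher with vehicle in the libraries labelled RPL3 KO. In the whole list of 9 amino acid sensors and folliculin genes, 4 rose and 1 fell in HCT 116p53-/- and 1 rose and 2 fell in the libraries labelled RPL3 KO (median 0.35 and 0.01), which is 55.6% and 33.3% called beside 18.7% and 11.9% of all genes.

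**Figure D4:**
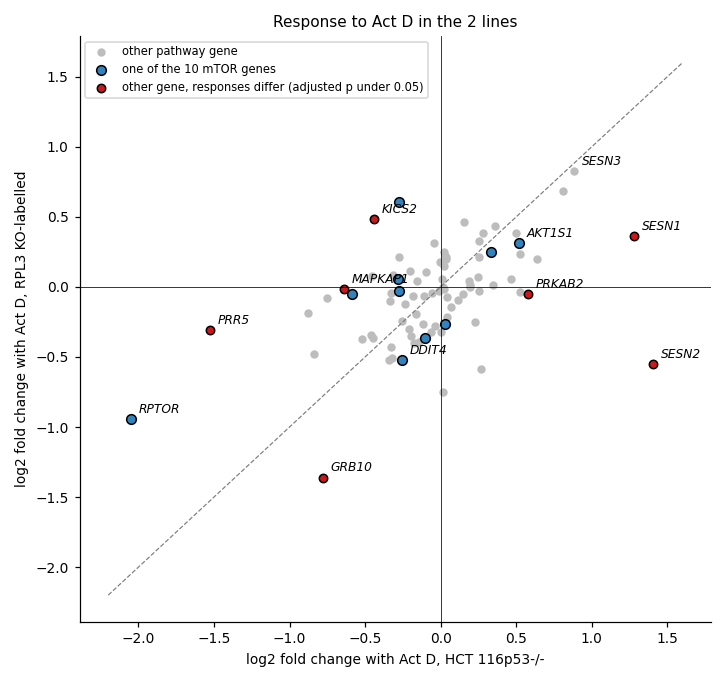
Log2 fold change with Act D in HCT 116p53-/- (horizontal axis) and in the libraries labelled RPL3 KO (vertical axis) for 85 of the 88 genes, without 3 that are at or near 0 counts in a group; blue points are the 10 mTOR genes, red points are other genes whose responses differed between the lines and the dashed line marks equal responses. RPTOR lies at -2.05 and -0.95 and SESN2 at 1.41 and -0.55, both far from the dashed line.

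Upstream, the 13 PI3K and AKT genes gave 6 higher and 4 lower in the libraries labelled RPL3 KO with vehicle and the same counts with Act D, 76.9% called beside 71.3% and 70.4% of all genes. PIK3CB, a catalytic PI3K subunit, was 2.82 times lower with vehicle in the libraries labelled RPL3 KO (adjusted p = 1.45e-07) and fell with Act D in HCT 116p53-/- from 39.1 to 21.4 CPM (adjusted p = 0.000609). In the LKB1 and AMPK list, which holds kinases that restrain mTORC1 at low energy, 2 of 9 were higher and 5 lower with vehicle (77.8% called, beside 71.3%). PRKAA2, a catalytic AMPK subunit, had 21 to 37 counts in each HCT 116p53-/- library and at most 2 in any library labelled RPL3 KO, being at least 5.84-fold lower with Act D. PRKAB2, a regulatory subunit, rose with Act D in HCT 116p53-/- from 23.7 to 35.4 CPM (adjusted p = 0.000894) and was at 42.7 and 41.4 CPM in the libraries labelled RPL3 KO, with responses differing by -0.63 ± 0.15 (adjusted p = 0.0169).

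Downstream, 9 of 16 substrates and effectors were higher and 4 lower with vehicle in the libraries labelled RPL3 KO (81.2% called, beside 71.3% of all genes). RPS6KB1, which encodes the S6 kinase that mTORC1 phosphorylates, was 3.19 times lower (107.4 against 33.7 CPM, adjusted p = 1.42e-11), and PDCD4, an inhibitor of translation initiation, was 3.54 times higher (16.6 against 58.6 CPM, adjusted p = 7.19e-12). With Act D 3 rose and 2 fell in HCT 116p53-/- (31.2% called, beside 18.7%) and 3 rose and 3 fell in the libraries labelled RPL3 KO (37.5%, beside 11.9%). GRB10, an adaptor stabilized by mTORC1, fell in both, from 19.4 to 11.3 CPM (-0.78 ± 0.11, adjusted p = 6.88e-05) and from 50.4 to 19.6 CPM (-1.36 ± 0.10, adjusted p = 1.27e-06), with responses differing by -0.58 ± 0.15 (adjusted p = 0.026). SGK1, a kinase activated by mTORC2, rose in both, 1.75-fold (adjusted p = 0.00134) and 1.61-fold (adjusted p = 0.00326).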

How the data were processed

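Paired-end RNA-seq libraries (TruSeq kit) came from 4 groups of 3 labelled biological replicates. The authors trimmed reads, filtered out contaminants and, with RSEM 1.2.25, assigned reads to hg38 Ensembl genes, and deposited expected counts, which RSEM divides between genes that share a read, and TPM (scaled per length and depth). For 1 library (HCT 116p53-/- with vehicle, replicate 2) values were per transcript and were summed per gene. Totals were 10087925 to 21138886 per library; 3 counts were taken as the smallest number showing expression and cover counting error only.

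Expected counts were rounded and filtered with filterByExpr, which left 15692 of 33990 genes with any count. TMM factors were 0.847 to 1.15, and edgeR 4.0.16 (R 4.3.3) fitted all libraries with a coefficient per group (quasi-likelihood test, Benjamini-Hochberg adjustment over all genes tested). CPM use TMM library sizes. Names and coordinates came from GENCODE v44 (60261 of 60617 identifiers matched). The code was tested on simulated data. Alternatives were DESeq2 1.42.0, other scalings, filters, samples and a replicate block, each library left out, and, chosen after seeing the data, an offset for GC content and transcript length. Same-numbered libraries did not deviate together (18 pairs, correlation of deviations -0.104 to 0.101, 1 above 0.1), so numbers were not taken to pair samples. Groups and numbers follow sample labels and titles; descriptions number the Act D libraries labelled RPL3 KO differently.

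The 10 genes were chosen by pathway role, and they, the lists and the tests were chosen with earlier results of these data known. Named are all 10 genes, from each list and comparison genes with the largest called fold change in each direction, the 3 genes most like the member that varied most, RPL3 and markers; some are not reported here, and the genes whose responses differed between lines were added. The p-values set differences between groups against the spread between these libraries. They do not cover the variation between other lines made in the same way.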

Additional observations from a re-analysis of the deposited data

Results flagged for a closer look

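The response to Act D differed between HCT 116p53-/- cells and the libraries labelled RPL3 KO for 8 of the 88 pathway genes, where 6.53% of all genes tested did so, by the test of the difference itself in the edgeR fit (adjusted p below 0.05). The response in the libraries labelled RPL3 KO minus that in HCT 116p53-/- was, on the log2 scale, 1.10 for RPTOR, 0.62 for MAPKAP1, 1.22 for PRR5 and 0.93 for KICS2. It was -1.95 for SESN2, -0.91 for SESN1, -0.63 for PRKAB2 and -0.58 for GRB10. RPTOR, MAPKAP1 and SESN2 kept the call in every alternative analysis (adjusted p at most 0.0253, 0.0184 and 0.000142). The other 5 lost it in at least 1, with adjusted p values of up to 0.0737 for PRR5, 0.0713 for KICS2, 0.0694 for GRB10, 0.0555 for SESN1 and 0.055 for PRKAB2. RPTOR, PRR5 and MAPKAP1 are subunits of the mTOR complexes, and SESN1 and SESN2 are sestrins. No library of any group of 3 was tested as an outlier. Correlations of log2 CPM among the Act D libraries labelled RPL3 KO were 0.9764 to 0.9817, below their highest with another group (0.9831). Among the vehicle libraries so labelled they were 0.9824 to 0.989. Those of HCT 116p53-/- were 0.9848 to 0.9864 with vehicle and 0.9852 to 0.9877 with Act D, above their highest with another group (0.9791).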

How the results depend on the processing

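Of 989 values of the 10 genes under alternatives, 906 kept direction and call, 35 lost the call, 24 gained it, 24 changed sign while uncalled and none reversed a call. With no filter on low counts 3 of the 10 genes were called for Act D in HCT 116p53-/- in place of 5, while calls over all genes went from 2939 to 2856. In the libraries labelled RPL3 KO 5 were called with DESeq2 and 6 with the correction for GC content and transcript length in place of 3. Over all genes, calls there went from 1869 to 2017 with DESeq2 and to 2402 with that correction. That correction raised the genes with differing responses from 1025 to 1645, and those among the 10 from 1 to 2 (RICTOR added, -0.41, adjusted p = 0.0284). The causes were not tested.

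Leaving out 1 library at a time, Act D in HCT 116p53-/- called 1833 to 3389 genes, 2 to 5 of the 10 and 15 to 27 of the 78. In the libraries labelled RPL3 KO it called 1272 to 1869, 1 to 4 and 9 to 16. Differing responses numbered 614 to 979, 1 to 2 and 2 to 9. Line differences with vehicle numbered 10677 to 11394, 6 to 7 and 56 to 62, and with Act D 10520 to 11364, 4 to 6 and 54 to 59. The replicate block lost 1 call among the 50 comparisons of the 10 genes (RICTOR with Act D in the libraries labelled RPL3 KO, -0.37, adjusted p = 0.0623) and gave 2469 and 1502 genes changed by Act D and 722 with differing responses; it changed no other call of the 10.

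Scaling by totals alone shifted the median by -0.24 between lines and -0.10 with Act D, and the share of calls that were higher went from 49.2% to 37.6% between lines with vehicle, 49.8% to 38.3% with Act D, and for the changes with Act D from 40.5% to 19.3% in HCT 116p53-/- and 29.5% to 10.9% in the libraries labelled RPL3 KO (48.3% with upper-quartile scaling). Low counts limit DEPTOR most.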
